A study of Caenorhabditis elegans with 6 samples.

Results

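spsb-1 (WBGene00021597) carried more ADR-1 read clusters than any other gene in the table of uniquely annotated significant clusters, 11 of 636. Of these, 5 lay in its 3' UTR and 6 in its introns, by the authors' annotation, and every row that named the gene was taken. The gene was chosen by its number of clusters, and the clusters themselves had been selected on their CLIP over input counts, so both are given as descriptions, and no test of CLIP over input is evidence about them. Just below it stood unc-34, Y56A3A.2 and C35E7.6, with 7 clusters each.

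ADR-1, an ADAR family protein of Caenorhabditis elegans, binds RNA but cannot deaminate it, and it alters the choice of adenosines edited by its active relative ADR-2. Proteins of this family bind base-paired RNA, which can form where a 3' UTR or an intron holds a sequence and its inverted copy. spsb-1 encodes a protein that the files describe as having a B30.2/SPRY domain. In mammals, SPRY domain proteins with a SOCS box act as the substrate receptors of ubiquitin ligases, with the SOCS box attaching the receptor to elongins and a cullin.

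The tested libraries were 3 CLIP libraries, numbered 1 to 3, from unsynchronized whole animals of strain HAH59, which carries 3xFLAG ADR-1, is called wild-type in the file captions and was grown at 20 °C. Ultraviolet light at 3 J/cm2 joined RNA to protein in the animals, RNase I shortened the RNA, and the fragments that came down with the tag were sequenced. They were set against 3 input libraries of the same strain, made from 2% of each RNase-treated lysate and resolved on the same type of gel. All 6 libraries carried the tag, so RNA that sticks to the beads and RNA that touches ADR-1 cannot be told apart. The file captions call the replicates biological, but the sources do not say whether each had a culture of its own. A p-value from a test over all 6 libraries thus speaks of the scatter among these libraries. The authors' p-values, each from 1 CLIP library and its input, cover counting error only. Cells and stages were mixed in each library and cannot be told apart either.

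The 636 clusters held 129358, 27961 and 79557 CLIP reads in replicates 1, 2 and 3, against 5406, 1869 and 5566 input reads. CLIP replicate 2 was thus the shallowest over the clusters. No deposited count was below 1, so a count of 1 may stand for 0. The totals behind the authors' statistics were 5776871, 5762110 and 5775666 reads for the CLIP libraries and 4159091, 2470561 and 4248480 for the inputs. It is unknown if the nearly equal CLIP totals are each library's own depth. A total that is off moves every scaled ratio of its replicate by the same amount, but not the difference between 2 clusters of 1 replicate.

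The gene lies on chromosome II from 15196733 to 15229725 on WBcel235, a span of 32993 bases, and RefSeq lists 9 transcripts for it. All 11 clusters were on the plus strand. They are named here from 5' to 3', I1 to I6 in introns and U1 to U5 in the 3' UTR. Cluster coordinates are those of the files, whose first base may be numbered 0 or 1, so distances to RefSeq genes can be off by 1 base.

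**Figure D1:**
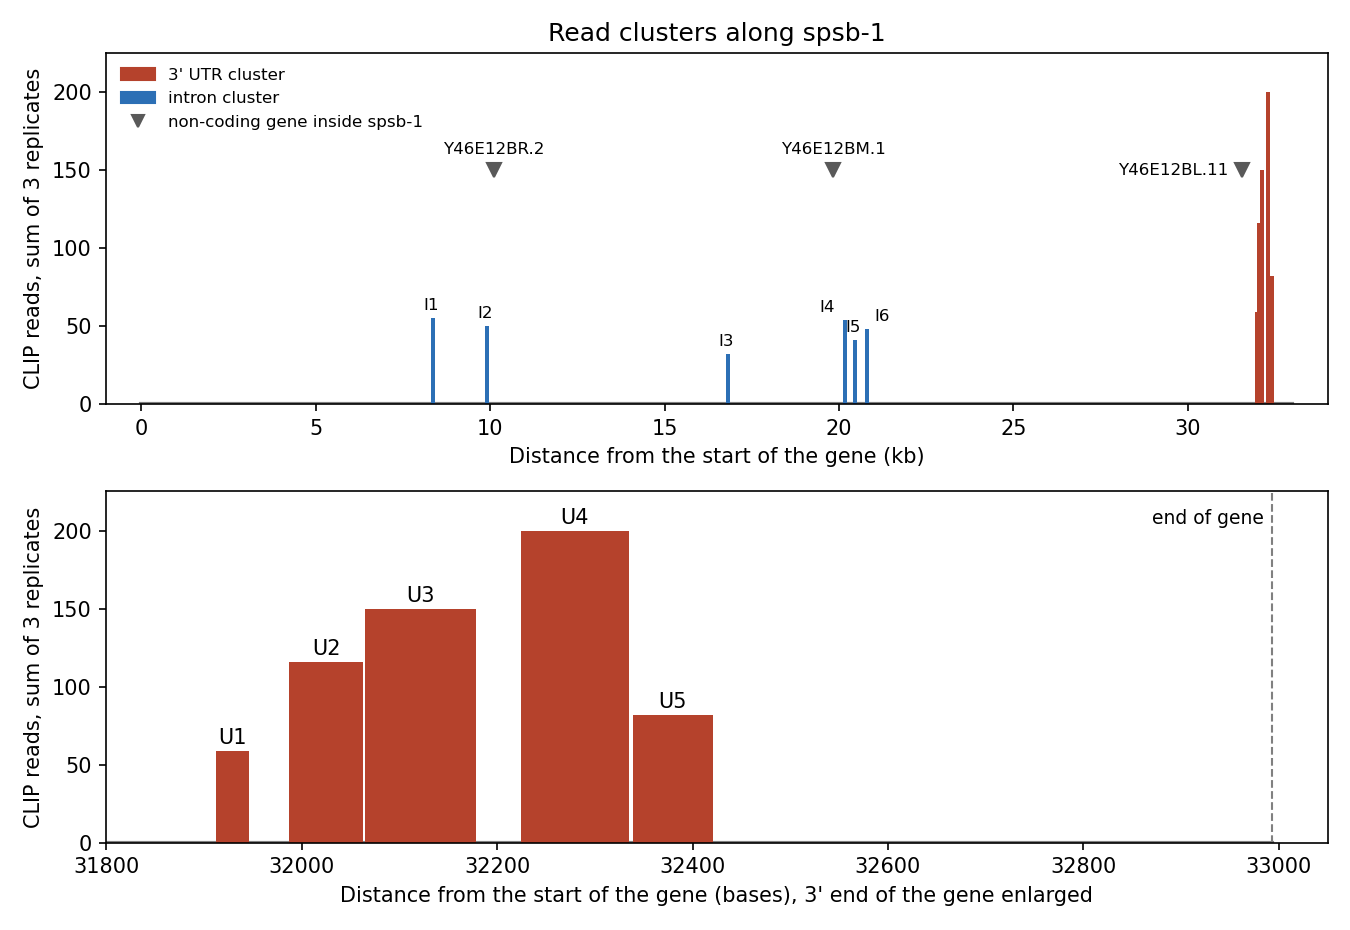
Positions of the 11 clusters along spsb-1 (upper panel, distance from the start of the gene in kb) and in its 3' end (lower panel, in bases). Bar height is the number of CLIP reads summed over the 3 replicates. The 6 intron clusters are spread over 12515 bases, and the 5 3' UTR clusters are packed into 509 bases and hold up to 200 reads each.

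The 3' UTR clusters formed a nearly continuous block. U1 (15228645 to 15228679), U2 (15228720 to 15228796), U3 (15228798 to 15228911), U4 (15228957 to 15229068) and U5 (15229072 to 15229154) were separated by 41, 2, 46 and 4 bases. They covered 416 of the 509 bases they spanned, or 81.7%. The last one ended 571 bases before the annotated end of the gene.

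Other 3' UTR arrays were mostly less densely covered. Neighbouring 3' UTR clusters of other genes lay a median of 61 bases apart over 195 pairs, and 41.5% of those pairs were within 46 bases. Of the 14 genes with at least 5 clusters in a 3' UTR, uba-2, named after its values were seen, had a denser block, with 89.5% of 429 bases covered. K02F3.2, F58D5.5 and C35E7.6, which had more 3' UTR clusters, had 65.0%, 28.9% and 62.0% covered. By median gap, uba-2 and K02F3.2 were tighter, with 9 and 20 bases against 22.5 in spsb-1.

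The intron clusters were dispersed. I1 (15205033 to 15205155) and I2 (15206578 to 15206690) began 8300 and 9845 bases into the gene and were 1423 bases apart. I3 (15213500 to 15213566) stood alone, 6810 bases further on. I4 (15216844 to 15216931), I5 (15217129 to 15217190) and I6 (15217468 to 15217548) formed a loose group with gaps of 198 and 278 bases. From I6 to the first 3' UTR cluster there were 11097 bases without a reproducible cluster.

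RefSeq places 3 non-coding genes inside spsb-1, and none of them had a cluster. The ncRNA Y46E12BR.2 begins 143 bases after I2, the ncRNA Y46E12BM.1 ends 206 bases before I4, and the snoRNA Y46E12BL.11 ends 176 bases before U1. The clusters therefore did not overlap them, and the list of 736 reproducible clusters held no further cluster within the gene on either strand. The next gene, spsb-2, begins 618 bases after the end of spsb-1 and had 0 clusters.

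Cluster width did not separate the classes. The 3' UTR clusters were 34 to 113 bases wide, with a median of 82, and the intron clusters 61 to 122 bases, with a median of 83.5. The median over other genes was 85.5 bases in 3' UTRs and 100 in introns.

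U4, the strongest of the 3' UTR clusters, had 127, 23 and 50 CLIP reads in replicates 1, 2 and 3, against 1 input read in each. U3 had 86, 21 and 43 CLIP reads, with 1, 1 and 2 in the inputs. U2 had 62, 21 and 33 CLIP reads against 1 input read in each. In these clusters, every CLIP count lay above every input count, and replicate 1 was the highest and replicate 2 the lowest.

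The outer clusters of the block were weaker. U5 had 46, 16 and 20 CLIP reads and U1 had 29, 13 and 17, each against 1 input read in each replicate. The order U4, U3, U2, U5, U1 held in all 3 CLIP libraries, with U3 and U2 tied in replicate 2. This order followed width in part, since per 100 bases U1, the narrowest, had 38.2 and 50.0 reads in replicates 2 and 3, the most of the 5, while U4 led in replicate 1 with 114. U4 held 32.9% of the 607 CLIP reads in the block.

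The intron clusters had fewer reads and differed from the 3' UTR clusters most in replicate 2. I1 had 22, 1 and 32 CLIP reads in replicates 1, 2 and 3, with 1, 2 and 1 in the inputs. I4 had 29, 1 and 24 CLIP reads, and I3 had 18, 1 and 13, each against 1 input read in each replicate. In these 3 clusters the CLIP count of replicate 2 was no higher than its input count, and the authors' deposited table calls them depleted there.

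The remaining intron clusters kept a few reads in replicate 2. I2 had 22, 3 and 25 CLIP reads, I5 had 18, 3 and 20, and I6 had 17, 9 and 22, each against 1 input read in each replicate. Replicates 1 and 3 were near each other, with 126 and 136 reads over the 6 clusters, and replicate 3 had the higher count in 4 of them. No order among the intron clusters held across the libraries: I4 was highest in replicate 1, I6 in replicate 2 and I1 in replicate 3.

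**Figure D2:**
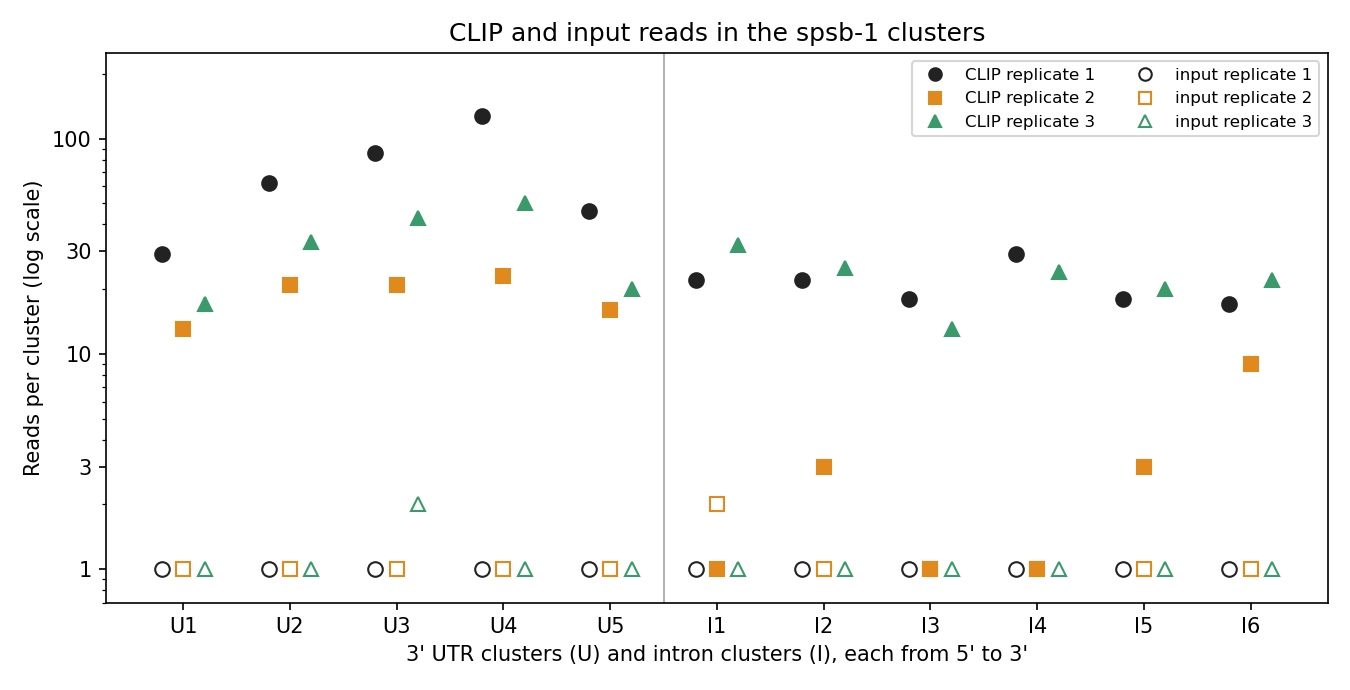
Reads per cluster on a log scale for the 3' UTR clusters (left) and the intron clusters (right), with filled symbols for CLIP and open symbols for input and one symbol shape per replicate. CLIP replicate 2 holds 13 to 23 reads in the 3' UTR clusters and 1 to 9 in the intron clusters, and input counts are 1 or 2 throughout. At I3 and I4 the CLIP symbol of replicate 2 covers that of its input, both at 1.

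Of the 33 input counts, 31 were 1 and the others were 2, so the input sets the precision of every ratio. Pooled over replicates and scaled by library totals, CLIP exceeded input 23.8-fold in the 3' UTR clusters (95% exact counting interval 14.6 to 42.0, 607 CLIP against 16 input reads). In the intron clusters it exceeded input 9.26-fold (5.82 to 15.6, 280 against 19 reads). Replicate 2 gave only 18 of these CLIP reads and 7 of the input reads, so the pooled intron fold rests mostly on replicates 1 and 3. Over the clusters of other genes, the pooled folds were 31.7 in 3' UTRs and 11.4 in introns. For single clusters the pooled fold ran from 12.4 at U1 to 41.9 at U4 in the 3' UTR, and from 6.70 at I3 to 11.3 at I4 in introns. The interval of U4 alone was 14.1 to 205. These intervals cover counting error only, and reads are not independent molecules. They take input counts of 1 as observed, and would not hold if such counts stand for 0. Scaled by reads over all clusters instead of library totals, the median log2 ratio averaged 0.91 ± 0.48 (SD, n = 3) in the 3' UTR. Introns averaged -0.80 ± 2.01 on this scale (SD, n = 3), so their mean fell below 0 by less than its SD. This scale compares a cluster with the bulk of the selected clusters, so a value below 0 does not show depletion against input.

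On the library-scaled log2 scale, the log2 of a cluster's share of CLIP reads over its share of input reads, U4 stood at 6.51, 3.30 and 5.20 in replicates 1, 2 and 3, a mean of 5.01 ± 1.62 (SD, n = 3). U2 and U3 averaged 4.42 ± 1.17 and 4.37 ± 1.43, and U5 and U1 averaged 3.90 ± 1.14 and 3.50 ± 0.96 (SD, n = 3). The means of neighbours in this order differed by less than their SDs. Those SDs include a shift that all 5 clusters shared, highest in replicate 1 and lowest in replicate 2. Within every replicate U4 was highest, U5 was below U2 and U3, and U1 was lowest. U2 and U3 were tied in replicate 2 and changed places between replicates 1 and 3. All 15 values of the 5 clusters were above 0.

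Among the intron clusters, I6 had the highest mean log2 ratio, 3.19 ± 1.10, and I2 followed at 2.85 ± 2.16 (SD, n = 3). I5, I4, I1 and I3 averaged 2.65 ± 1.98, 2.43 ± 3.17, 2.11 ± 3.76 and 1.91 ± 2.72 (SD, n = 3). For I4, I1 and I3 the SD exceeded the mean, as the value in replicate 2 was -1.22, -2.22 and -1.22. In replicate 1 the 6 clusters lay between 3.61 and 4.38 and in replicate 3 between 3.26 and 4.56.

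**Figure D3:**
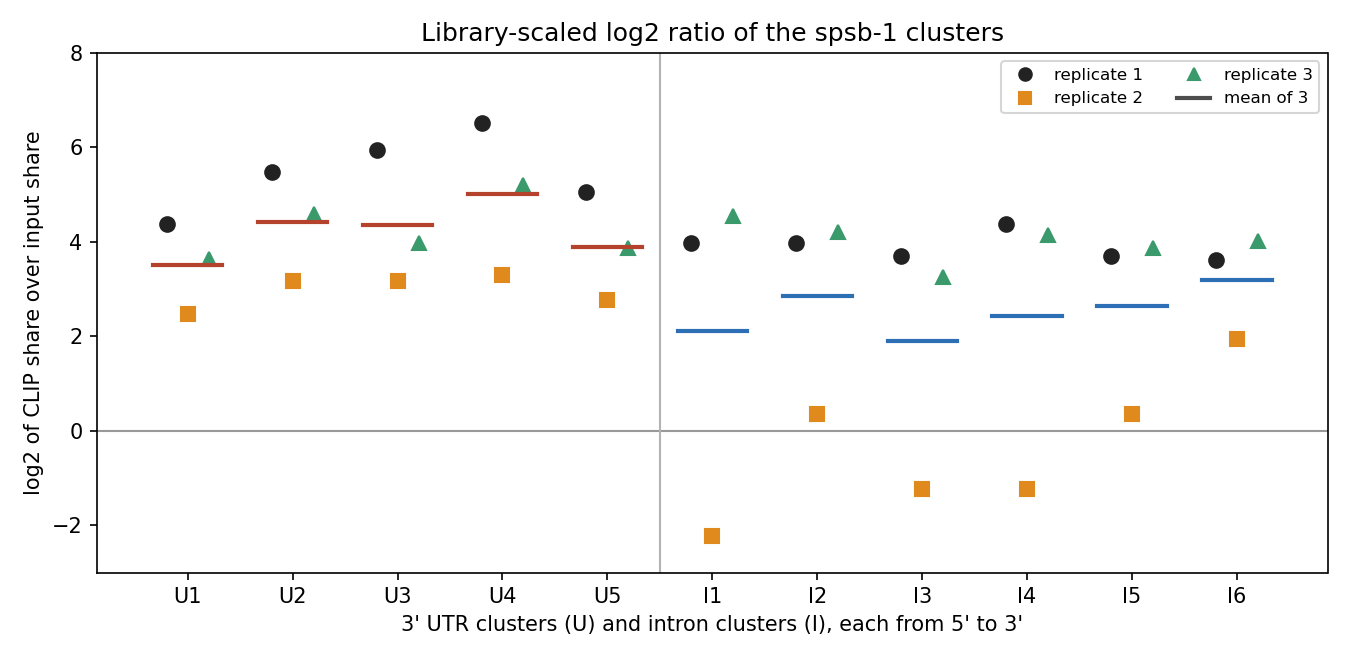
Library-scaled log2 ratio of CLIP over input for each cluster, 3' UTR on the left and introns on the right, with one symbol per replicate and a bar at the mean of 3. All 3' UTR values lie above 0, and 3 intron clusters fall below 0 in replicate 2.

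The median log2 ratio of the 3' UTR clusters was 5.48, 3.17 and 3.98 in replicates 1, 2 and 3, against 3.84, -0.43 and 4.08 for the intron clusters. The difference, 3' UTR minus intron, was 1.64, 3.60 and -0.10, a mean of 1.71 ± 1.85 (SD, n = 3). The 3' UTR clusters thus had the higher median in 2 of 3 replicates, and the mean difference was smaller than the spread between replicates. Without replicate 2 it was 0.77. The median intron ratio averaged 2.50 over replicates and 3.96 without replicate 2.

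In CLIP reads alone, the difference of median log2 counts was 1.64, 3.60 and 0.52 in replicates 1, 2 and 3, positive in 3 of 3, with a mean of 1.92 ± 1.56 (SD, n = 3). The ranges of the classes met in replicate 1, at 29 to 127 reads in 3' UTR clusters against 17 to 29 in introns. They were apart in replicate 2, at 13 to 23 against 1 to 9, and overlapped in replicate 3, at 17 to 50 against 13 to 32. In replicate 3, where the sign differs between the log2 ratio and the CLIP reads, the median cluster by ratio was U3, with 2 input reads.

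The 3' UTR share of the gene's CLIP reads also moved between libraries. It was 73.5% in replicate 1 (95% Wilson interval 69.4 to 77.3, 350 of 476 reads), 83.9% in replicate 2 (76.0 to 89.6, 94 of 112) and 54.5% in replicate 3 (48.8 to 60.1, 163 of 299). These intervals also cover counting error only and leave out the spread between libraries, so the differences between replicates were not tested. Relative to replicate 1, replicate 3 held 46.6% of the reads in the 3' UTR clusters and 107.9% in the intron clusters, while replicate 2 held 26.9% and 14.3%.

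The clusters of other genes also kept a smaller share in 3' UTRs than in introns in replicate 3, but had nearly equal shares in replicate 2. Over 426 3' UTR and 91 intron clusters, replicate 3 held 61.7% and 87.7% of the reads of replicate 1, and replicate 2 held 21.0% and 21.8%. In replicate 2, 25.3% of the intron clusters of other genes and 1.64% of their 3' UTR clusters had a CLIP count of 1, against 3 of 6 and 0 of 5 in spsb-1. The median difference in log2 ratio, 3' UTR minus intron, was 1.30, 1.70 and 0.88 over the clusters of other genes. Whether the library differences of spsb-1 exceed those of other genes was not tested.

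In the authors' deposited table, a test of each replicate gave p under 0.05 for 5, 4 and 5 of the 5 3' UTR clusters in replicates 1, 2 and 3. It gave 6, 0 and 6 of the 6 intron clusters. Over all 636 clusters the shares were 99.8%, 46.7% and 99.5%, and 46.1% passed in all 3 replicates, which U2 to U5 did and U1 did not. Such p-values in 2 or 3 replicates were the condition of the list, so nothing is read from these counts. Among other genes, 53.1% of 3' UTR clusters and 5.49% of intron clusters passed in all 3 replicates.

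edgeR's quasi-likelihood test was run over all reproducible clusters. Of the 11 in spsb-1, its filter on low values kept 5, U1 to U5. All 5 were higher in CLIP at an adjusted p under 0.05, where 97.2% of the 463 tested clusters were and 0 were lower, so the count says nothing particular to the gene. None of the intron clusters met the filter. Without it, 11 of 11 were called, beside 715 of 736 over the whole list. Without CLIP replicate 2, 10 of 10 tested spsb-1 clusters were called, beside 679 of 680 over the list. Without input replicates 1, 2 and 3, the counts were 8, 11 and 8 of 11, beside 597, 675 and 593 of 731. The test called 0 of 5, and 36 clusters higher and 72 lower over the whole list, with TMM scaling, which sets the bulk of these enriched clusters near 0.

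spsb-1 was chosen for its number of clusters, and by CLIP reads it did not lead. Its summed CLIP counts of 476, 112 and 299 ranked 39th, 38th and 36th of 290 protein-coding genes in replicates 1, 2 and 3. The actin regulator gene unc-34, with 5 clusters in the 3' UTR and 2 in introns, had 526, 173 and 228 CLIP reads, and C35E7.6, with 7 in the 3' UTR, had 972, 184 and 572. Within their class, the spsb-1 clusters lay in the lower and middle range by reads. Summed over replicates, U1 to U5 had more CLIP reads than 13.6% to 58.7% of the 426 other 3' UTR clusters. I1 to I6 had more than 2.20% to 54.9% of the 91 other intron clusters. Inputs were low in the 3' UTR clusters, of which 80% had 1 read in all inputs, against 35.4% in other genes. For intron clusters these shares were 83.3% and 71.4%. CLIP replicate 2 was low in the intron clusters, of which 83.3% had at most 3 reads there, against 44.0% in other genes. In the 3' UTR clusters it was not low, with a median of 21 reads against 20 in other genes.

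**Figure D4:**
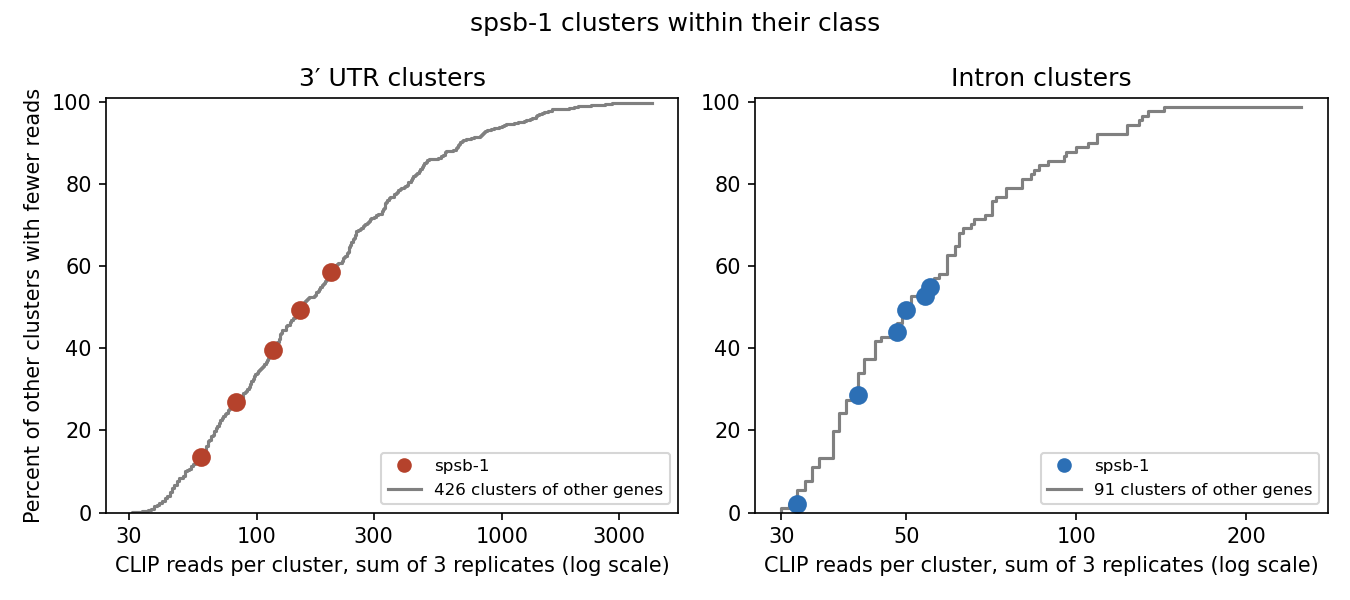
Percent of clusters of other genes with fewer CLIP reads (vertical axis) against CLIP reads summed over 3 replicates (horizontal axis, log scale), for 3' UTR clusters (left) and intron clusters (right). Points are the spsb-1 clusters, which hold 59 to 200 reads in the 3' UTR and 32 to 55 in introns and lie in the lower and middle parts of both curves.

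The count depends on how close clusters are counted. With clusters under 50 bases apart joined, the 3' UTR block became 1 site and spsb-1 had 7 sites, against 6 for unc-34 and 5 each for C35E7.6 and Y56A3A.2. With only clusters at p under 0.05 in all 3 replicates, it had 4, and 7 genes had 5. The lead of spsb-1 thus rested on its intron clusters, which had low counts in replicate 2. With 6 it had the most intron clusters of any gene in the table, and 44 of the 63 other genes with an intron cluster had 1.

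Clusters in both a 3' UTR and an intron were present in 13 genes. The 3' UTR minus intron difference in log2 ratio was above 0 in all 3 replicates in 7 of these, in 2 of 3 replicates in spsb-1, and in 0 of 3 in tag-234, named after its values were seen. By Euclidean distance over the 3 replicate differences, the closest genes to spsb-1 were wac-1.1 (1.66), scm-1 (2.22), unc-34 (2.41), Y56A3A.2 (2.57) and sam-10 (2.94). wac-1.1 had differences of 0.97, 3.00 and 1.30, and scm-1 had -0.30, 2.58 and 0.26, both highest in replicate 2. That follows in part from the choice by distance, and replicate 2 was the highest in 7 of the 13 genes. Both rest on 1 intron cluster, and scm-1 also had only 1 cluster in the 3' UTR.

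unc-34 had differences of 1.78, 2.25 and 1.89. The mean was 1.71 ± 1.85 in spsb-1, against 1.97 ± 0.24 in unc-34 (SD, n = 3), so the replicates of unc-34 lay closer together. Y56A3A.2, with 4 clusters in the 3' UTR and 3 in introns, had 1.14, 1.08 and 0.00. Its 3' UTR share of CLIP reads was 73.7%, 73.3% and 53.2%. Replicate 3 had the lowest share in 7 of the 13 genes, spsb-1 and Y56A3A.2 included. crh-1, the gene of a CREB transcription factor, also named after its values were seen, had 4 intron clusters and a 3' UTR share of 67.3%, 72.7% and 48.2%.

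**Figure D5:**
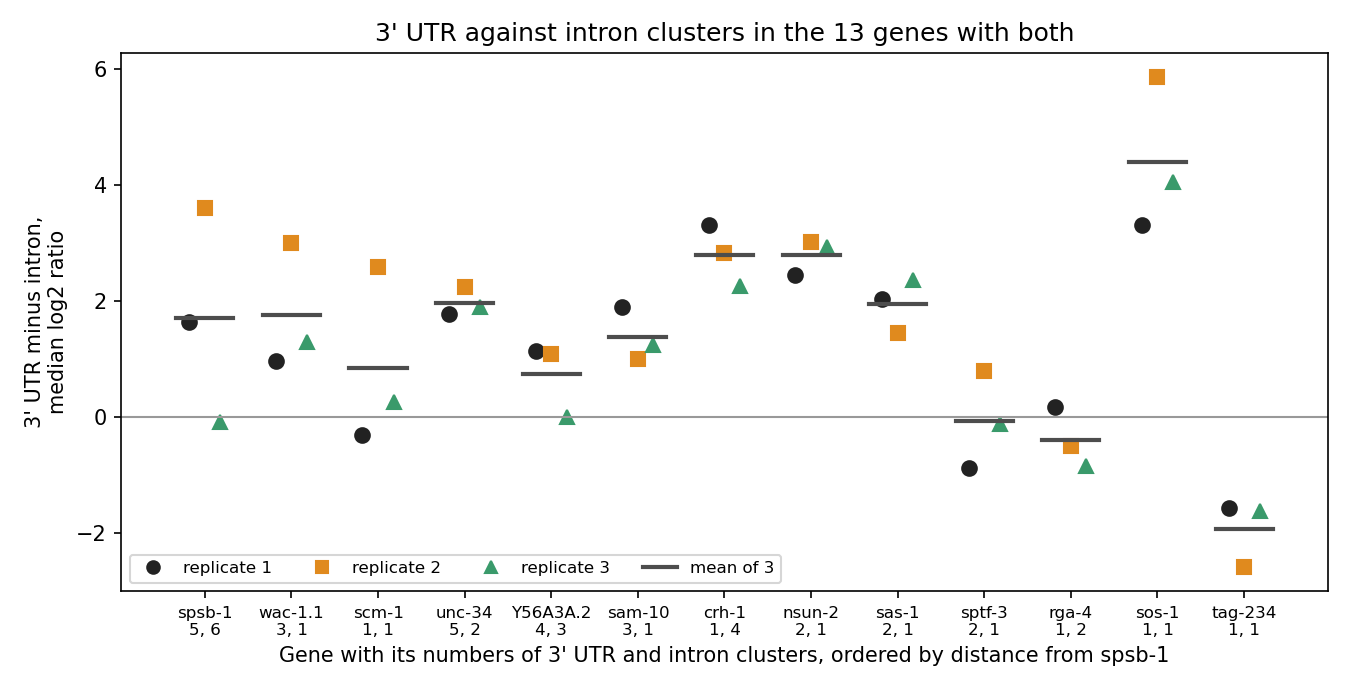
Difference in median library-scaled log2 ratio, 3' UTR minus intron clusters (vertical axis), in the 13 genes with both, with one symbol per replicate and a bar at the mean of 3. Genes are ordered by distance from spsb-1, and the numbers under each name are its 3' UTR and intron clusters. The spsb-1 values run from -0.10 to 3.60, and tag-234 lies below 0 in all replicates.

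Among 34 genes of SOCS box proteins, cullin ubiquitin ligases and their regulators, 3 had a cluster: spsb-1, elc-1 and cand-1. Apart from spsb-1, which was chosen for its clusters, that is 2 of 33 (6.06%), beside 289 of the 19982 other protein-coding genes of RefSeq (1.45%), and nothing particular to the list is read from it. elc-1 (WBGene00001236), which encodes elongin C, the adaptor that binds a SOCS box, had 1 cluster in its 3' UTR (chromosome III, 1414371 to 1414460, minus strand). Its CLIP reads numbered 23, 10 and 19 in replicates 1, 2 and 3 and its input reads 2, 3 and 1, which gave a mean log2 ratio of 2.46 ± 1.72 (SD, n = 3). cand-1 (WBGene00013606), which encodes an exchange factor of cullins, had 1 cluster in its 3' UTR (chromosome V, 16814273 to 16814322, plus strand). It held 21, 6 and 13 CLIP reads against 1 input read in each replicate, a mean log2 ratio of 2.85 ± 1.33 (SD, n = 3). No cullin gene, neither elongin B nor spsb-2 had a cluster. In CLIP reads, elc-1 and cand-1 fell within the range of all spsb-1 clusters, introns included, in every replicate. The spsb-1 clusters in the 3' UTR alone held 29 to 127, 13 to 23 and 17 to 50 reads in replicates 1, 2 and 3. Both genes lay below that range in replicates 1 and 2, and in replicate 3 cand-1 lay below it and elc-1 within it. Their mean log2 ratios were below those of U1 to U5, which ran from 3.50 to 5.01.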

How the data were processed

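Values are read counts per cluster as the authors deposited them, for 736 reproducible clusters and the 636 of these with a unique annotation. Per the submitters' processing notes, fastp 0.21.0 and STAR 2.7.10b were used, and the builds named are ce11 and WBcel235. Per the file captions, CLIPPER called the clusters, WormBase WS275 annotated them, and the authors took each replicate's deposited p-value from a chi-square or a Fisher test. The deposited score is the chi-square statistic. One deposited log2 column is the fold with 1 added to both counts and no scaling, and another, named entropy, is the ratio of library shares with no added count; each was met in 736 of 736 clusters of every replicate. RNA ends were ligated on the beads, per the labels' protocols, and the sources do not say how joined reads were mapped.

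Library totals were fitted so that Yates-corrected chi-square statistics matched the scores, which succeeded for 130 of 130, 73 of 76 and 116 of 116 scores in replicates 1, 2 and 3, with errors of 0.0655%, 2.10% and 0.170% in the CLIP totals. Log2 ratios were then computed with no added count. The plan had named an added count of 1, which became an alternative chosen after seeing the data.

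edgeR 4.0.16 (glmQLFit, glmQLFTest, filterByExpr) in R 4.3.3 tested CLIP against input with these totals as library sizes and no replicate block, with Benjamini-Hochberg adjustment over all clusters kept and a threshold of 0.05. DESeq2 1.42.0 was an alternative, as were TMM, no filter, the block, other added counts and leaving out each library. Scripts were tested on simulated data. A CLIP library and the input of the same number share a lysate, per the labels' protocols, and the correlations of their deviations were 0.309, 0.0971 and 0.00307. The genes named are spsb-1, those with 6 or more clusters, the 5 closest in pattern, its neighbours and the listed ligase genes with a cluster, with exceptions marked in the text. The gene and the lists were chosen with earlier results of these data known.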

Additional observations from a re-analysis of the deposited data

How the results depend on the processing

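Scaling by the reads over all clusters instead of library totals centres enriched clusters near 0. It gave a median log2 ratio of 0.15 for the 11 spsb-1 clusters and 0.91 for those in the 3' UTR. For those in introns it gave -0.80 ± 2.01 (SD, n = 3), where the sign turned but the SD exceeded the value. The count of spsb-1 clusters was 4 with p under 0.05 in all 3 replicates and 7 with neighbours under 50 bases apart joined. edgeR called 450 clusters higher in CLIP and 0 lower, also at an unadjusted p under 0.05, against 36 higher and 72 lower under TMM, 715 without the filter and 716 with DESeq2; for spsb-1 the counts were 5, 0, 11 and 11. With the replicate block, the counts were 451 and 5, and the block changed no call count by over 1.5 times. Leaving out 1 library at a time gave 393 to 679 clusters, the most without CLIP replicate 2. For spsb-1 it gave 4 to 11, the most without input replicate 2. The filter was rerun each time and kept 426 to 731 clusters, against 463 in the main fit. Of spsb-1 it kept 4 to 11, against 5. The cause of the differences in calls was not tested. Leaving out 1 replicate at a time gave log2 ratios of 2.98 to 4.20 for all 11 clusters, 3.58 to 4.73 in the 3' UTR and 1.71 to 3.96 in introns. Their difference was 0.77 to 2.62, and 1.08 to 2.62 in log2 CLIP reads. Added counts of 0.5 and 1, means, summed reads and reads per 100 bases moved these values by less than 1 SD between replicates. So did counts of 1 taken as 0 with 0.5 then added. Set against 0.5 added alone, that last setting raised the log2 ratio from 2.95 to 4.49 over all 11 clusters. In the 3' UTR it rose from 3.73 to 5.20, and in introns from 2.07 to 3.39. The rises over all clusters and in the 3' UTR exceeded the SDs of the main values, 1.31 and 1.17. The 3' UTR minus intron difference went from 1.67 to 1.81. The difference could not be computed over clusters with p under 0.05 in all 3 replicates, as no intron cluster was left. Input counts near 1 limit every ratio.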
